A study of Mus musculus with 6 samples.

Results

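Complement regulators and receptors are the proteins that restrain or extend the complement cascade and the receptors that read its products. Taken here were 9 genes, chosen by name: Cfi, Cfp, Cd46, Cd55, Cd59a, Serping1, Clu, C3ar1 and C5ar1. All 9 are among the 15663 genes listed for every library, and 8 of the 9 had enough counts to be tested. RNA-seq was performed on the RPE-choroid, that is the retinal pigment epithelium (RPE) with the vascular choroid beneath it, of male C57BL/6J mice (C57BL/6 in the sample labels), supplied at an age of 8 to 10 weeks. The control group held 3 untreated mice, and the other group held 3 mice with subretinal fibrosis (SRF) made by laser, at 1 library per mouse. In the SRF mice, 4 burns were placed around the optic nerve head of each eye to break the membrane under the RPE. Each lesion was burnt again after 10 days, and RNA was extracted 20 days after that. The sources do not give the share of each tissue piece that was lesion, and the choroid is not free of blood or resident immune cells.

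Complement is a cascade of serum and tissue proteins in which cleavage of C3 coats surfaces with C3b and releases the small peptide C3a, and cleavage of C5 releases C5a and starts the membrane attack complex. Soluble inhibitors act at successive steps: C1 inhibitor (Serping1) on the C1 proteases, factor I (Cfi) on C3b and C4b, and clusterin (Clu) on the terminal complex, while properdin (Cfp) does the opposite and stabilises the convertase of the alternative pathway. Host cells carry Cd46, a cofactor for factor I, Cd55, which speeds the decay of convertases, and Cd59a, which blocks the attack complex. C3ar1 and C5ar1 are G-protein-coupled receptors for C3a and C5a, best known on myeloid cells. In the eye the cascade is studied chiefly for its part in age-related macular degeneration, the disease that the laser model imitates.

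The promoters of the receptors are shown because C3ar1 was the member with the clearest difference between the groups and C5ar1 is its nearest relative in function. The 250 bases before the start site come from RefSeq on GRCm38.p6, at chr6:122856158-122856407 for C3ar1 and chr7:16259339-16259588 for C5ar1, both read 5′ to 3′ along the minus strand. The GENCODE M21 annotation places the start of C5ar1 at 16259540. By that annotation most of the bases printed for C5ar1 lie inside the gene. Capitals mark a match to TGANTCA, the AP-1 motif.
C3ar1: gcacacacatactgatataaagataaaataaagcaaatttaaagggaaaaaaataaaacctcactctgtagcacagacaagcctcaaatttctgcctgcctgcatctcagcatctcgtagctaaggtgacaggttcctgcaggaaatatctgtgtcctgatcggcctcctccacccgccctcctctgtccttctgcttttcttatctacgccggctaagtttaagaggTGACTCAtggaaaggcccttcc
C5ar1: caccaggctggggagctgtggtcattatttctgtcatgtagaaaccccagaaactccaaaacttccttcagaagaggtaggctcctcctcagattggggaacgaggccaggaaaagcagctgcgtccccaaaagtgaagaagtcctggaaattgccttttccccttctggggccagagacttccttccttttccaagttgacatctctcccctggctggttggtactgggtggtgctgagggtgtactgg
A set of 3 motifs was searched on both strands, without counting overlaps between motifs, in the 300 bases that run from 250 before to 50 after the start. GAGGAA, the core bound by the myeloid factor PU.1, occurs in 28.3% of all 32851 mouse promoters in the table, TTCNNNGAA, bound by STAT factors, in 8.3%, and TGANTCA in 7.81%. The C3ar1 window held 1 TGANTCA match, 22 bases before the start, and no match to the other motifs. The windows of C5ar1, Cd46 and Cd55 held none of the 3 motifs, that of Cd59a held GAGGAA 62 bases before the start, and that of Cfp held GAGGAA on the opposite strand at 7 and at 23 bases after it. Promoters of Cfi, Serping1 and Clu were not used here.

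Library totals lay between 13667310 and 24356023 counts, at which 3 counts equal 0.123 to 0.22 CPM, the count scaled to a common library size with edgeR's TMM factors. The summed level of the RPE markers was high in every library, at 41691 to 49934 CPM in control and 27439 to 36943 CPM in SRF mice. Rgr alone made up 24269 to 27059 CPM of that sum in control and 13958 to 17520 CPM in SRF mice. Best1 was low, at 2.76 to 4.54 CPM in control mice. Of the 10 RPE markers 4 had an unadjusted edgeR p-value under 0.05, all lower in SRF. Photoreceptor markers set control 1 and SRF 3 apart, with 13015 and 12589 summed CPM over 15 genes against 746 to 1797 CPM in the other 4 libraries. Results for members that move when both libraries are left out are given with and without them. Mouse numbers are shared between the groups but mark different animals.

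Levels of the members differ from each other far more than they differ between the groups. By FPKM, which divides by transcript length and so allows genes to be compared, Clu was the highest in control mice at 1641.26 to 1878.92, followed by Serping1 at 138.96 to 248.63 and Cd59a at 46.24 to 51.48. C3ar1 came next at 6.18 to 6.49 FPKM. Cd55, Cfp and C5ar1 followed at means of 4.83, 4.59 and 3.35 FPKM, and the ranges of Cd55 and Cfp overlapped, as did those of Cfp and C5ar1. Cd46 at 0.87 to 1.51 and Cfi at 0.34 to 0.39 FPKM were lowest. In SRF mice the first 4 places were the same, with C3ar1 now at 10.63 to 13.9 FPKM. Cfp, Cd55 and C5ar1 could not be ordered in SRF mice beyond their spread, and neither could Cd46, at 1.0 to 1.81 FPKM, and Cfi, at 0.73 to 1.37 FPKM. The secreted inhibitors Clu and Serping1, and the surface inhibitor Cd59a, were thus the abundant transcripts of the group in this tissue. Cfi, which also encodes a secreted inhibitor, was not among them.

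**Figure D1:**
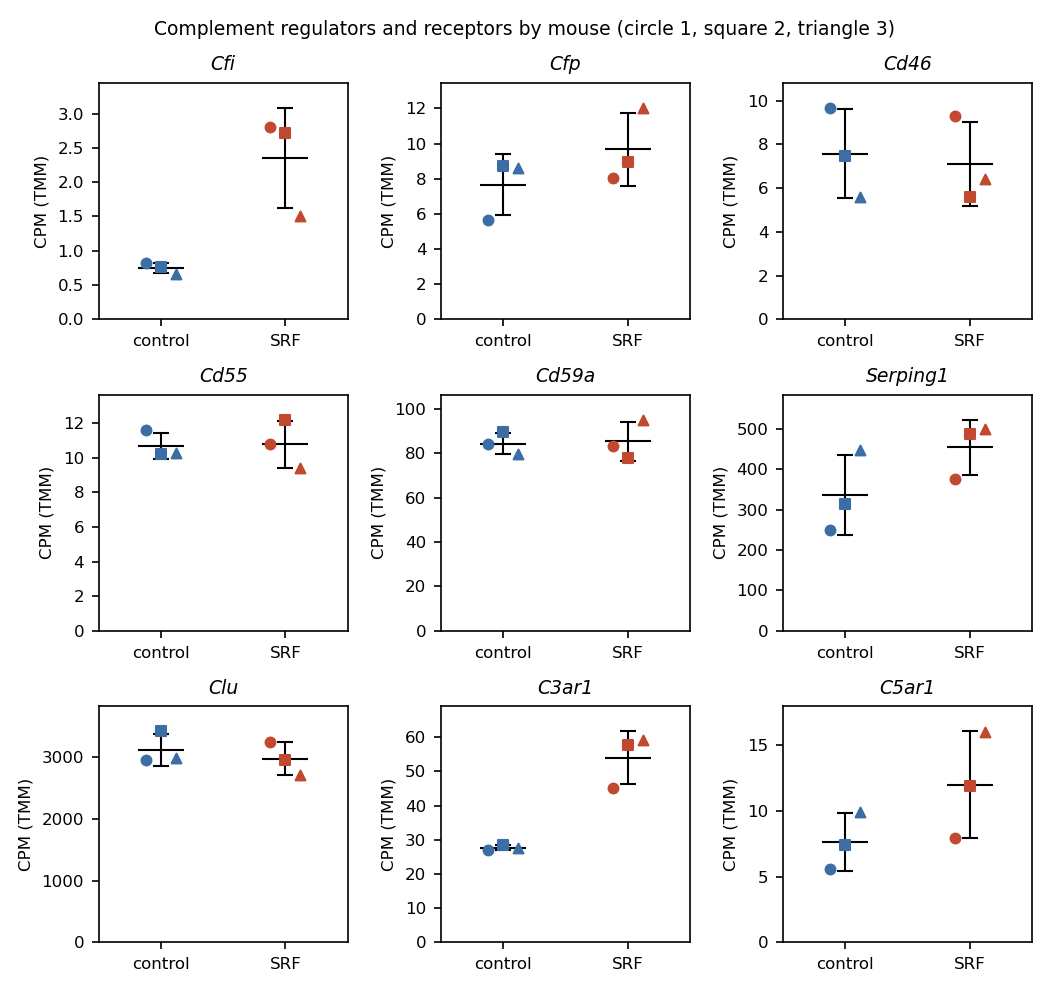
Level of each of the 9 genes in TMM-normalized CPM on a linear axis that starts at 0, for 3 control and 3 SRF mice. Points are mice, the long bar is the group mean and the whiskers are 1 SD. The groups are apart for Cfi and C3ar1 and overlap for the other 7 genes.

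After Benjamini-Hochberg adjustment of edgeR's quasi-likelihood test over 13454 genes, 0 of the 8 tested members passed an adjusted p-value of 0.05 with a log2 fold change of at least 0.5 (0% of all genes tested did). At an unadjusted p-value under 0.05, 1 member, C3ar1, was higher in SRF and 0 were lower, beside 4.16% of all tested genes higher and 2.85% lower. DESeq2 on the same counts and thresholds called C3ar1 higher in SRF and no member lower. DESeq2 called 0.803% of genes higher and 0.334% lower. The SRF values lay wholly above the control values for 2 of the 9 genes, C3ar1 and Cfi, and wholly below for none, where 6.65% of the listed genes were wholly above and 6% wholly below. Of the 8 tested members 6 had a positive and 2 a negative log2 fold change, with a median of 0.18, where the median over all tested genes was 0.00 and 6773 of them were positive.

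C3ar1 (ENSMUSG00000040552, GRCm38 chr6:122847138-122856161, minus strand), the receptor for C3a, was about 2 times as high in SRF as in control mice. Control mice 1, 2 and 3 had 364, 528 and 660 counts of it, and SRF mice 1, 2 and 3 had 836, 1038 and 1060. After scaling, these were 27.0, 28.6 and 27.5 CPM against 45.1, 57.7 and 59.2 CPM. Every SRF library was above every control library, and the lowest SRF value was well clear of the highest control value. The means were 27.7 ± 0.801 CPM and 54.0 ± 7.75 CPM (SD, n = 3 each), a ratio of 1.95. The log2 fold change was 0.96 with a standard error of 0.14 and a 95% interval of 0.64 to 1.29. In edgeR's quasi-likelihood test the p-value was 0.000217, the 13th smallest of all genes, and the Benjamini-Hochberg adjusted p-value was 0.198. DESeq2 gave the same log2 fold change with a Benjamini-Hochberg adjusted p-value of 2.7e-05, and it kept C3ar1 past the threshold without any 1 of the 6 mice, with adjusted p-values from 5.34e-10 to 0.00685. An exact permutation test, two-sided, gave 0.1, the smallest value that 3 mice against 3 allow. The control mice varied by 2.89% around their mean, less than the 4.53% that counting alone gives, whereas the SRF mice varied by 14.3%, where counting alone gives 3.22%.

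Macrophage markers moved with C3ar1. Of 15 listed macrophage genes 13 had a positive log2 fold change and 8 an unadjusted p-value under 0.05, and their summed level was 1289 to 1635 CPM in control and 2925 to 4280 CPM in SRF mice. Lyz2 (lysozyme) alone made up 741 to 1002 CPM of that sum in control and 2073 to 3297 CPM in SRF mice, and the other 14 genes summed to 548 to 638 CPM and 816 to 983 CPM. In bulk tissue more cells of a type and more RNA per cell cannot be told apart. The markers moved unequally, from log2 fold changes of 1.49 for Lyz2 and 1.05 for Cd68 (a lysosomal glycoprotein) to -0.03 for Csf1r (the receptor for colony-stimulating factor), 0.03 for Itgam and -0.11 for Mertk (a receptor for engulfment). Relative to the mean log2 level of all 15 markers in the same library, C3ar1 was at -0.12, -0.34 and -0.40 in control mice and at 0.02, -0.00 and 0.30 in SRF mice. These ratios did not overlap and differed by 0.39 on the log2 scale, again with the smallest exact permutation p-value of 0.1. The difference was 0.36 against the median of the markers and 0.36 without Itgam, which is itself a chain of a complement receptor. The part of macrophage number in the C3ar1 difference was not tested. Neutrophil markers were low, at 6.68 to 10.7 summed CPM in control and 11.8 to 12.4 CPM in SRF mice, and 3 of their 8 genes, Ly6g, Mpo and Elane, were not listed. None of the 6 lymphocyte markers had enough counts to be tested.

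**Figure D2:**
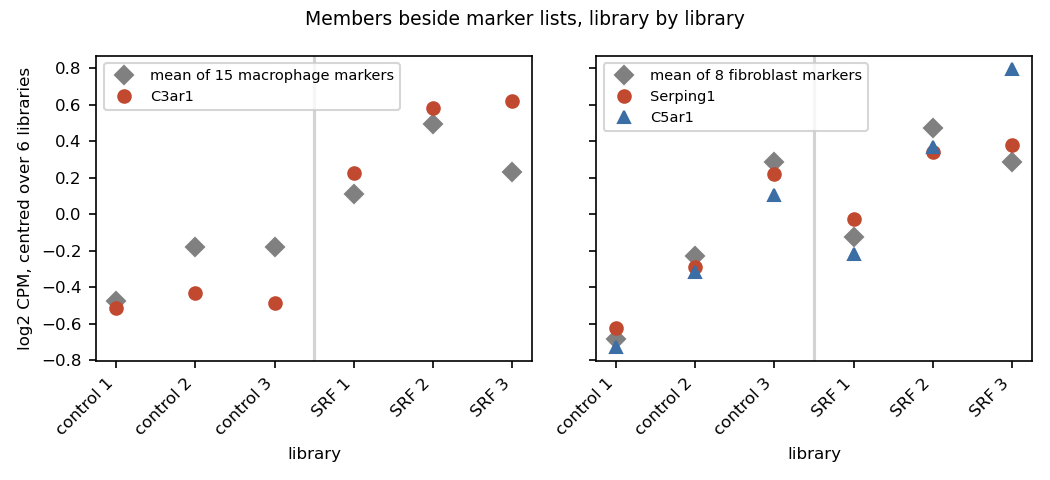
Level in each of the 6 libraries as log2 CPM minus its own mean over the 6 libraries, with C3ar1 and the mean of 15 macrophage markers at left and Serping1, C5ar1 and the mean of 8 fibroblast markers at right. C3ar1 is below 0 in all 3 control mice and above 0 in all 3 SRF mice, while Serping1 and C5ar1 lie near the fibroblast markers in most libraries, with control 3 above SRF 1.

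C5ar1 (ENSMUSG00000049130, chr7:16246743-16259540, minus strand), the receptor for C5a, had a higher mean in SRF mice, with overlapping groups. It was at 5.57, 7.42 and 9.95 CPM in control mice and 7.93, 11.9 and 16.0 CPM in SRF mice. SRF 1 lay below control 3, and SRF 3 was the highest of the 6. The means were 7.65 ± 2.2 and 12.0 ± 4.05 CPM (SD, n = 3 each), and the log2 fold change was 0.64 with a standard error of 0.33 and a 95% interval of -0.14 to 1.42. In edgeR's quasi-likelihood test the p-value was 0.092 and the Benjamini-Hochberg adjusted p-value 0.802. Without control 1 and SRF 3, the libraries rich in photoreceptor transcripts, the log2 fold change was 0.19. Relative to the macrophage markers C5ar1 differed by 0.07 between the groups, with an exact permutation p-value of 0.8. Its interval holds the C3ar1 estimate, and the difference between the receptors was not tested. Its library profile lay closer to the mean of 8 fibroblast markers, at a root mean square difference of 0.23 on the log2 scale, than to the mean of the macrophage markers, at 0.32. C3ar1 showed the other order, at 0.39 and 0.23.

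Cfi (ENSMUSG00000058952, chr3:129835884-129875332, plus strand), the protease that inactivates C3b and C4b, was the lowest of the 9 genes, and its counts were small. The control mice had 11, 14 and 16 counts of it and the SRF mice 52, 49 and 27, so that only SRF 1 passed 50 counts and the gene was not tested. These were 0.817, 0.758 and 0.666 CPM against 2.81, 2.72 and 1.51 CPM, with no overlap, and SRF 3 stood nearer to the control mice than the other SRF mice did. The means were 0.747 ± 0.076 and 2.35 ± 0.726 CPM (SD, n = 3 each), a ratio of 3.14. Exact Poisson 95% intervals, which cover counting error only, ran from 0.41 to 1.46 CPM in control 1 and from 0.99 to 2.20 CPM in SRF 3, so those libraries cannot be separated by their counts. With all genes admitted, edgeR's quasi-likelihood test gave Cfi a log2 fold change of 1.64 with a standard error of 0.40, a p-value of 0.00398 and a Benjamini-Hochberg adjusted p-value of 0.424. None of the transcript stretches of 50 bases in Cfi is shared with another gene.

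Serping1 (ENSMUSG00000023224, chr2:84765387-84775444, minus strand), which encodes C1 inhibitor, had a higher mean in SRF mice, with control 3 inside the SRF range. It was at 249, 313 and 446 CPM in control mice and at 376, 486 and 499 CPM in SRF mice. The spread among the control mice was wide, and the means were 336 ± 100 and 454 ± 67.7 CPM (SD, n = 3 each). The log2 fold change was 0.43 with a standard error of 0.23 and a 95% interval of -0.11 to 0.98, and in edgeR's quasi-likelihood test the p-value was 0.102 and the Benjamini-Hochberg adjusted p-value 0.816. DESeq2 gave a Benjamini-Hochberg adjusted p-value of 0.809 over all mice. Without control 3 it gave a log2 fold change of 0.69 and 0.0476, past the threshold, and without any other 1 mouse it did not pass. With both photoreceptor-rich libraries left out the log2 fold change was 0.18. Fibroblast markers moved with it library by library: their summed level was 4414, 5779 and 10346 CPM in control and 6841, 9466 and 11266 CPM in SRF mice. Dcn alone made up 2627, 3217 and 6333 CPM of that sum in control and 3704, 4596 and 7243 CPM in SRF mice. The mean log2 profile of the 8 fibroblast markers differed from that of Serping1 by a root mean square of 0.09. Single markers did not all follow Serping1, as Col3a1 was lower in control 3 than in SRF 1. Of those 8 markers 8 had a positive log2 fold change and 1 an unadjusted p-value under 0.05. Their part in the Serping1 values was not tested.

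Clu (ENSMUSG00000022037, chr14:65968483-65981547, plus strand), the secreted chaperone clusterin, was the most abundant member and had overlapping levels in the groups. It was at 2959, 3423 and 2993 CPM in control mice and 3255, 2966 and 2713 CPM in SRF mice. The ranges overlapped, and the means were 3125 ± 259 and 2978 ± 271 CPM (SD, n = 3 each). The log2 fold change was -0.07 with a standard error of 0.12, and the 95% interval ran from -0.35 to 0.21. Counting error is negligible here, with at least 39845 counts in every library.

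Cfp (ENSMUSG00000001128, chrX:20925454-20931555, minus strand) encodes properdin, the only member that promotes activation. It was at 5.64, 8.72 and 8.58 CPM in control mice and 8.04, 8.95 and 12.0 CPM in SRF mice. SRF 1 lay below 2 of the 3 control mice, and the means were 7.65 ± 1.74 and 9.67 ± 2.08 CPM (SD, n = 3 each). The log2 fold change was 0.34 with a standard error of 0.26 and a 95% interval of -0.29 to 0.96. It was -0.03 without control 1 and SRF 3, which were the lowest and the highest value. Relative to the macrophage markers Cfp differed by -0.22, with an exact permutation p-value of 0.4.

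The surface regulators gave log2 fold changes close to 0. Cd59a (ENSMUSG00000032679, chr2:104095801-104115354, plus strand) measured 84.0, 89.3 and 79.6 CPM in control mice and 83.4, 77.8 and 95.0 CPM in SRF mice. SRF mice held both its lowest and its highest value, and the log2 fold change was 0.02 with a standard error of 0.12 and a 95% interval of -0.26 to 0.30. Of the 1811 stretches of 50 bases in its transcripts 70 also occur in Cd59b, the neighbouring copy, which averaged 3.03 ± 0.429 CPM in control and 2.87 ± 0.217 CPM in SRF mice (SD, n = 3 each).

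Cd55 (ENSMUSG00000026399, chr1:130439027-130462744, minus strand) was at 11.6, 10.2 and 10.3 CPM in control mice and 10.8, 12.2 and 9.44 CPM in SRF mice. Its groups overlapped fully, and the log2 fold change was 0.01 with a standard error of 0.18 and a 95% interval of -0.41 to 0.44. Its value may be less certain than the standard error says. Of its stretches of 50 bases 9.12% also occur in the copy Cd55b, which the tables do not list, or in Gm16083 on the opposite strand. How shared reads were counted is not given in the sources used here.

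Cd46 (ENSMUSG00000016493, chr1:195036826-195092249, minus strand), which in mice is best known from the testis, was the lowest tested member by FPKM. Its counts were 130, 138 and 134 in control and 172, 101 and 115 in SRF mice, or 9.65, 7.47 and 5.58 CPM against 9.28, 5.61 and 6.43 CPM. The groups overlapped fully, and the log2 fold change was -0.09 with a standard error of 0.30 and a wide 95% interval of -0.81 to 0.63. The direction changed on the FPKM scale, where the log2 fold change was 0.09 in limma. Of its stretches of 50 bases 13.5% occur in A330023F24Rik, the host transcript of Mir29b-2 and Mir29c on the opposite strand, and whether counting used the strand is not given in the sources used here.

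**Figure D3:**
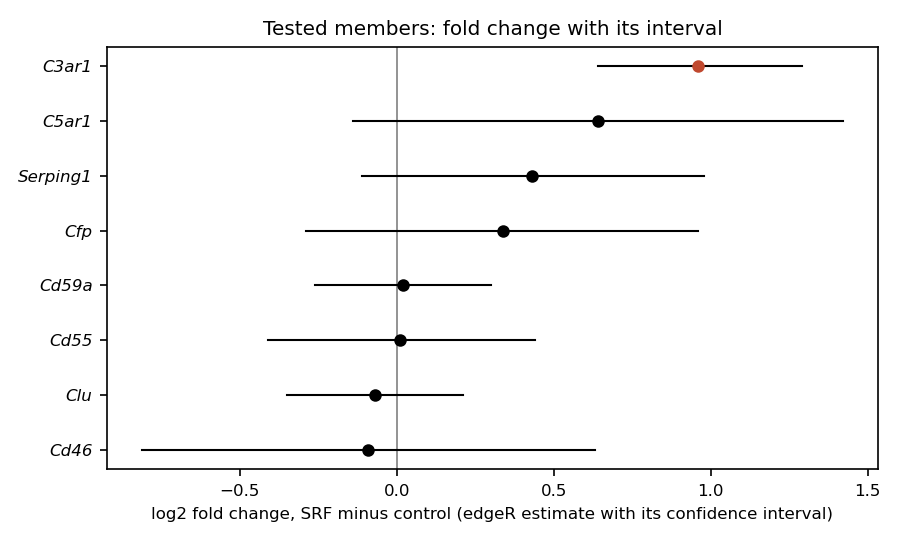
Log2 fold change (SRF minus control) of the 8 tested genes from edgeR with its 95% interval, ordered by size, and C3ar1, the gene that DESeq2 called, in red. The interval of C3ar1 starts at 0.64, and the intervals of the other 7 genes include 0.

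The genes whose pattern over the 6 libraries was most like each member were found by the root mean square difference of log2 CPM profiles, each centred on its own mean, among 12116 genes. C3ar1 was most like Cd84 (a leukocyte adhesion receptor, 0.0739), Itgb5 (an integrin chain, 0.0934) and Cd5l (a protein secreted by macrophages, 0.101). C5ar1 was most like Prelp at 0.111, Creb3l1 at 0.114 and Pld4 at 0.129. Serping1 was most like Ecm2, an extracellular matrix protein, at 0.0444, Fam198b at 0.0624 and Nbl1, a secreted antagonist of BMP signals, at 0.0626. Cfi was most like Prrx2 at 0.136, Jund, a component of AP-1, at 0.141 and Gm13889 at 0.147, and Cfp was most like Lrrc17 at 0.0739, Jrk at 0.093 and Zfp518b at 0.104. For the other members the nearest genes were Dctn3 at 0.0198 from Clu, Auh at 0.0357 from Cd59a and Ccdc189 at 0.0689 from Cd46. Among the members themselves Cd55 and Clu were 0.151 apart and C5ar1 and Serping1 0.197 apart, while Cfi and C3ar1, the members with groups that do not overlap, were 0.496 apart. These likenesses rest on 6 libraries that all values share, so they describe the libraries and carry no test.

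Of the genes upstream of the regulators, 17 of 28 complement components were listed and 15 tested, of which 14 had a positive log2 fold change and 5 an unadjusted p-value under 0.05, all higher, with a median of 0.39. Those 5 had log2 fold changes of 0.90 for C1qb, 0.81 for C1qc and 0.72 for C1qa, the chains of C1q, 0.57 for C4b and 1.04 for Cfd, the protease factor D. None passed the adjusted threshold in edgeR's quasi-likelihood test, and DESeq2 called C1qb and C1qc. The groups of Cfd overlapped, at 8.39, 10.9 and 12.8 CPM in control mice and 26.9, 26.8 and 12.5 CPM in SRF mice. C4b may hold reads of its near-identical copy C4a, which the tables do not list. Serping1, the inhibitor of the proteases that bind C1q, stood at 0.43, between these and the members that gave log2 fold changes near 0. C3, the source of the ligand of C3ar1, averaged 16.4 ± 1.38 CPM in control and 18.4 ± 2.87 CPM in SRF mice (SD, n = 3 each), a log2 fold change of 0.17 with a standard error of 0.17. On the FPKM scale its groups did not overlap, and limma gave a log2 fold change of 0.67 with a standard error of 0.23. Hc, the mouse gene for C5 and so the source of C5a, is not listed. Of 20 other regulators and receptors 15 were listed and 12 tested, with a median of 0.08. Among these Itgax and Itgb2, the chains of an integrin receptor for cleaved C3, each had a log2 fold change of 1.27, and the level of Itgb2 was 16.9 ± 0.551 CPM in control and 40.7 ± 10.1 CPM in SRF mice (SD, n = 3 each). DESeq2 called both, whereas the partner chain Itgam, with a log2 fold change of 0.03, was not called. Cr1l (Crry), the main mouse surface regulator of C3 convertases, averaged 67.2 ± 15.3 CPM in control and 73.9 ± 2.3 CPM in SRF mice (SD, n = 3 each), a log2 fold change of 0.13 with a standard error of 0.18. Among the tested genes of the cascade, those past the unadjusted threshold were thus recognition and activating components and leukocyte receptors, and no regulator of the convertases or of the attack complex was among them.

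**Figure D4:**
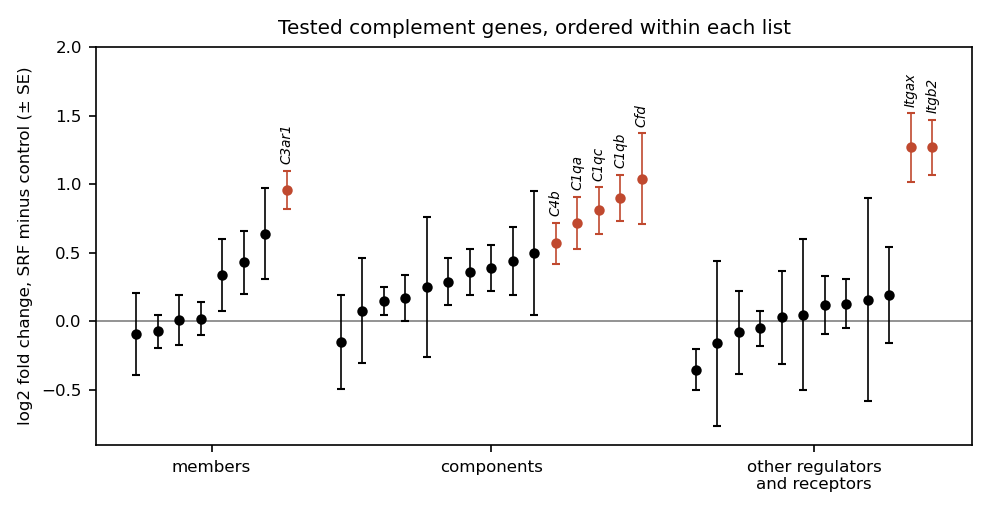
Log2 fold change (SRF minus control) with its standard error for every tested complement gene, ordered within the 8 members, 15 components and 12 other regulators and receptors. Genes with an unadjusted edgeR p-value under 0.05 are red and named, and all 8 of them, C3ar1 included, lie above 0.5.

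The members differed in how far their values moved with the analysis. Over 21 alternatives the log2 fold change of C3ar1 ran from 0.87 to 1.08, that of Clu from -0.14 to 0.00 and that of Cd59a from -0.07 to 0.08. C5ar1 had the widest span, 0.19 to 0.88, and Serping1 ran from 0.18 to 0.69. Cfp ran from -0.03 to 0.45, Cd55 from -0.08 to 0.16 and Cd46 from -0.33 to 0.19.

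**Figure D5:**
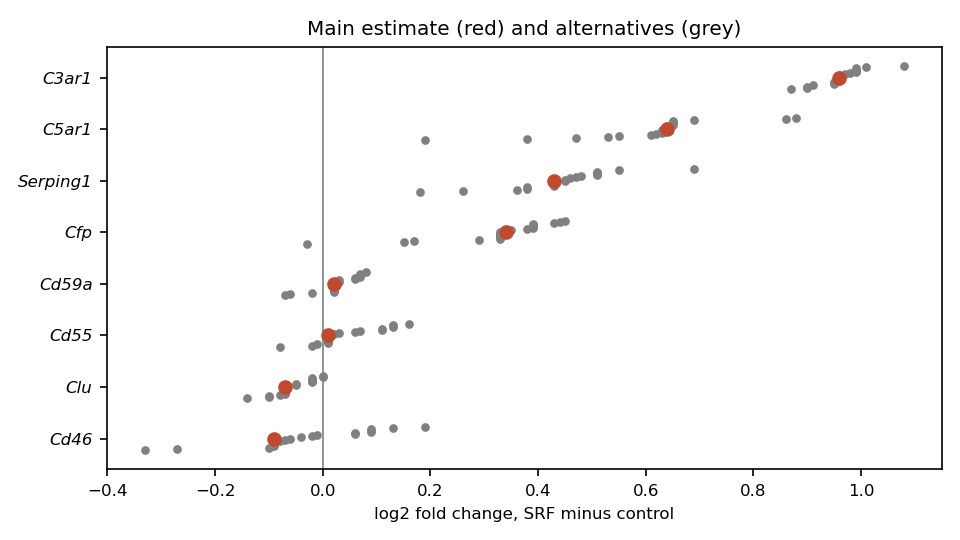
Log2 fold change (SRF minus control) of each of the 8 tested genes in the edgeR analysis of all 6 mice (red) and under 21 alternatives (grey), among them other tests, scalings and filters and the removal of mice. C3ar1, C5ar1 and Serping1 stay above 0 throughout, while the values of Cfp, Cd59a, Cd55 and Cd46 fall on both sides of 0.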

How the data were processed

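RPE-choroid RNA of 3 control and 3 SRF mice was sequenced as 6 libraries. The authors filtered reads with FASTP and counted the reads of each gene with StringTie, and these counts were deposited as unnormalized whole numbers. FPKM values, also deposited by the authors, are scaled by transcript length and mapped reads. Aligner, genome build and strandedness are not given in the sources used here. DESeq2 is named as the authors' test. Identifiers were matched to GENCODE M21 on GRCm38, with 15659 of 15663 found. No listed count is under 1.

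The 13454 genes that exceeded 50 counts in 2 or more libraries were tested with edgeR 4.0.16 in R 4.3.3, using TMM factors of 0.978 to 1.03, glmQLFit in its older form, glmQLFTest and Benjamini-Hochberg adjustment over all tested genes. Standard errors and 95% intervals are from this fit, whose median standard error was 0.19. Alternatives were limma 3.58.1 on counts and on log2(FPKM + 0.1) or log2(FPKM + 1), other normalizations and filters, a photoreceptor covariate, a replicate block, leaving out mice, and DESeq2 1.42.0. Single values were compared by exact permutation tests, two-sided. Nothing in the labels says more of the replicates than that they are separate mice.

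The members, marker lists, motifs and tests were chosen with earlier results of these data known. Named were the members, the other complement genes below an unadjusted p-value of 0.05, the copies Cd55b and Cd59b, C3, Hc, Cr1l and the 3 most similar genes per member among those with a mean of at least 5 CPM; for Clu, Cd59a and Cd46 only the nearest is given, and a likeness result is not reported here. Itgam, other markers and the genes sharing stretches with members were named after their values were seen. The scripts were tested on simulated counts.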

Additional observations from a re-analysis of the deposited data

How the results depend on the processing

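In edgeR 0 genes and 0 members were called with all 6 mice. DESeq2 called 153 genes, and edgeR without control 1 and SRF 3 together also called 153. In both settings 1 member was called, C3ar1, with log2 fold changes of 0.96 and 0.87 and adjusted p-values of 2.7e-05 and 0.0439. Gene counts were 1 with limma-voom, with the newer quasi-likelihood form, with upper quartile factors, with library totals, with no filter on counts, with filterByExpr and with the photoreceptor covariate, and 2 in each of 4 limma fits on FPKM. Without 1 mouse edgeR called 0 to 5 genes, the 5 without control 1, and DESeq2 called 1 to 2 members, adding Serping1 without control 3. Without control 1 and SRF 3 the log2 fold change turned to -0.03 for Cfp, 0.19 for Cd46 and -0.07 for Cd59a. On the FPKM scale Cd46 turned to 0.09, or 0.06 with the larger pseudocount. Without 1 mouse Cd46 ran from -0.33 to 0.13, Cd55 from -0.08 to 0.11, Cd59a from -0.06 to 0.08 and Clu from -0.14 to 0.00. The cause was not tested. C5ar1 and Serping1 kept their direction in all 21 alternatives and Cfi in the 3 that could include it, none of which leaves out a mouse. Adjusted p-values of C3ar1 ranged from 2.7e-05 to 1 over the 21 alternatives. The DESeq2 fits without 1 mouse are not among these 21, and they gave C3ar1 adjusted p-values from 5.34e-10 to 0.00685. Same-numbered mice had deviations correlated at -0.482, 0.478 and -0.306, so the numbers were not taken to pair the mice. With a replicate block for the mouse number edgeR called 0 genes and gave C3ar1 0.95 with an adjusted p-value of 0.345. Depth limits Cfi most.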

Other observations

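The FPKM and count values of C3 gave different sizes. C3 was at 3.08, 2.9 and 3.94 FPKM in control mice and 4.01, 6.55 and 5.55 FPKM in SRF mice, which do not overlap, whereas its count-based levels overlapped. On log2(FPKM + 0.1) limma gave a log2 fold change of 0.67 with a standard error of 0.23 and a Benjamini-Hochberg adjusted p-value of 0.547, beside 0.17 from the counts. The log2 ratio of FPKM to CPM of C3 shifted by 0.52 between the groups, where the median tested gene shifted by 0.05 and 0.342% of tested genes lay at least as far from that median. Of the members, Cd46 at 0.19 and Cd55 at 0.12 had shifts above 0.05, and C3ar1 had 0.05.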
